A study of Mus musculus with 28 samples.

Results

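The comparison described here is the change of the lipopolysaccharide (LPS) effect with time in murine bone marrow-derived macrophages (BMDMs). It is the difference between LPS and control at 16 h minus the same difference at 3.5 h, called the interaction below, so that a change over time which the control cultures share is taken out of it. It uses 18 of the 28 cultures in the series: each of the 2 times, 3.5 h and 16 h, had 5 control cultures and 4 given LPS. All genes were taken, of which 8748 of the 54532 in the table reached 10 TPM, a transcript level scaled to gene length and library, in at least 1 of the 18 cultures and were tested. LPS was given at 100 ng/ml and controls received PBS. The macrophages came from the marrow of C57/B6JB mice per the study's methods and were grown with M-CSF. The treatment protocol in the labels, which is the same text for every sample, has the cells washed and put in fresh medium with added calcium before the agent. The labels number the cultures of a group as biological replicates but do not say whether they came from separate mice, and the p-values measure the spread between these cultures.

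LPS is a cell wall component of Gram-negative bacteria that macrophages sense through Toll-like receptor 4. The receptor signals first through MyD88 to NF-kappaB and MAP kinases, which switch on cytokine and chemokine genes quickly, and then through TRIF to IRF3 and interferon beta, which acts back on the cells to switch on interferon response genes. Inhibitors of the pathway are themselves LPS-induced, so that single genes can respond early and briefly, late, or throughout, and the cells also rebuild their metabolism and leave the cell cycle.

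Total counts per culture lay between 41131209 and 72349526, with group medians between 47374692 and 54733128. Levels are CPM, counts scaled to library size with TMM factors, given as mean ± SD over n = 5 control or n = 4 LPS cultures, and changes are log2 values ± SE. One control culture at 16 h, replicate 5, stood apart: its root mean square log2 distance from the rest of its group was 1.02, against 0.315 to 0.367 for the other 4. In the LPS group at 16 h, replicate 4 had a distance of 0.795 against 0.227 to 0.479. Ribosomal protein genes lay a median of 0.83 and 0.65 log2 units above the group mean in these 2 cultures, respiratory chain genes 0.53 and 0.53 above it, and glycolysis genes 0.63 and 0.25 below it. The part of these shifts in the results was not tested, and counts without them are given beside a list where they differ by more than 1.5 times. All 9 macrophage markers were expressed, with a summed level of 5904 to 16760 CPM. Markers of T and NK cells summed to 1.06 to 9.64 CPM, of B and plasma cells to 1.31 to 14.3, of neutrophils to 4.53 to 37.2, of mast cells to at most 3.89 and of erythroid cells and platelets to at most 12.1, with Fcer1a at 0 in every culture. The 6 dendritic cell markers summed to 0.690 to 2.01 CPM in control cultures and 14.2 to 32.8 CPM in LPS cultures, most of it Xcr1, and their part in the results was not tested. The 6 fibroblast markers, mainly Col1a1 and Col1a2, ranged from 18.5 to 356.5 CPM with overlapping ranges in all 4 groups.

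LPS effects were called for similar numbers of genes at both times, and for 26.3% of the genes the size of the effect changed between them. A gene was called at a Benjamini-Hochberg adjusted p under 0.05 in edgeR's quasi-likelihood test and an absolute log2 change of at least 1. At 3.5 h, 2117 genes (24.2%) were called for LPS against control, 1120 higher (12.8%) and 997 lower (11.4%). At 16 h it was 2443 genes (27.9%), 1335 higher (15.3%) and 1108 lower (12.7%). The interaction was called for 2301 genes (26.3%), with the LPS effect moving up in 1177 (13.5%) and down in 1124 (12.8%), and its median over all genes was 0.0023. Of these calls, 1724 (74.9%) held when each of the 18 cultures was left out in turn. Without both cultures that stood apart, 8654 genes were tested and 2452 called, and 2191 of the calls were shared (95.2% of the first list and 89.4% of the second).

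The LPS effect of each gene was then placed in a class. An effect faded where the interaction was called against the direction of an effect called at 3.5 h, grew where it was called in the direction of an effect called at 16 h, and reversed where the effects called at the 2 times were opposite. It persisted where effects in the same direction were called at both times and the interaction was not called. The 95% confidence interval of the interaction also had to lie within 1 log2 unit of 0, so that a change of 2-fold is outside the interval. A gene with an LPS effect at either time that fitted none of these was left unresolved. Of the 3357 genes with an LPS effect at either time, 288 faded from higher and 442 from lower, 461 grew higher and 591 grew lower, 229 persisted higher and 99 lower, 23 reversed from higher to lower and 47 from lower to higher, and 1177 were unresolved. Among effects that faded, more had been lowered than raised. Among those that persisted, more were raised than lowered, but with library size alone as scaling the balance turned to 127 raised and 412 lowered.

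**Figure D1:**
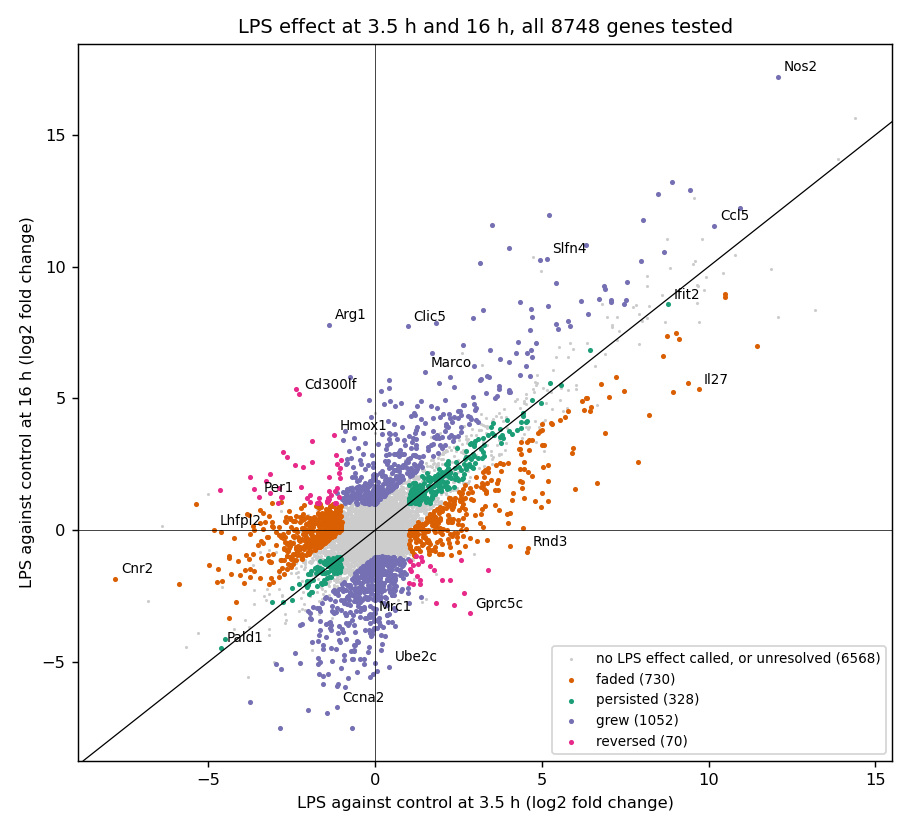
LPS effect (log2 fold change against control) of the 8748 genes tested, at 3.5 h on the horizontal and at 16 h on the vertical axis, coloured by class. The diagonal marks an equal effect at both times: 328 genes that persisted lie along it, the 730 that faded lie toward the horizontal axis, the 1052 that grew lie toward the vertical axis, and the 70 that reversed lie at the upper left and lower right.

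Control cultures changed over the same hours. Between 3.5 and 16 h, 863 genes (9.87%) were called in control cultures, 390 higher (4.46%) and 473 lower (5.41%), and 2375 (27.1%) in LPS cultures, 1198 higher (13.7%) and 1177 lower (13.5%). Of the 2375 genes that changed in LPS cultures, 1570 (66.1%) had the interaction called and 805 did not. In 220 of the 805 the control cultures changed in the same direction. Of the 2301 interaction calls, 1340 were genes that changed over time in LPS cultures alone, 149 changed in opposite directions in LPS and control cultures, 81 changed in both in the same direction, 507 passed in neither on its own, and 224 changed in control cultures alone. These comparisons share cultures with the interaction, and the counts are a description of how its calls were made up.

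**Figure D2:**
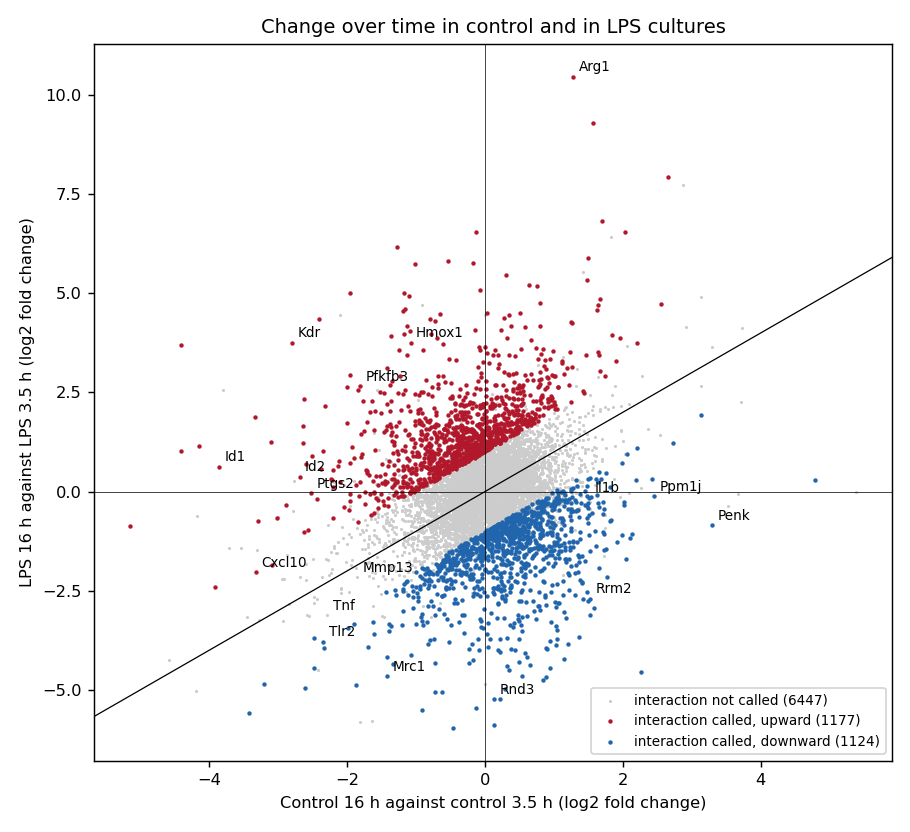
Change from 3.5 to 16 h in control cultures (horizontal) and in LPS cultures (vertical), in log2, for all genes tested; red and blue points are the 1177 genes whose LPS effect moved up and the 1124 whose effect moved down. Points on the diagonal changed equally in both, and Mmp13 lies close to it. Id1 and Penk lie far along the horizontal axis, with no change called in LPS cultures.

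The largest shifts show what each class looks like. In the list that follows, the 3 leading protein-coding genes of a class are those with the largest interaction whose call held without every single culture and whose level reached 10 CPM. Effects that faded were led by Rnd3, Rnd1 and F3. Rnd3 and Rnd1 encode small GTPases that loosen the actin cytoskeleton, and F3 encodes tissue factor, which starts coagulation. Rnd3 (ENSMUSG00000017144, GRCm38 chr2:51130438-51149111) had 11.4, 9.23, 8.94, 14.2 and 10.1 CPM in the 5 controls and 216, 277, 269.6 and 245 CPM in the 4 LPS cultures at 3.5 h. At 16 h it had 11.9, 14.6, 12.3, 15.3 and 4.89 CPM in controls and 8.61, 6.89, 7.07 and 4.33 CPM with LPS. Every LPS culture was above every control at 3.5 h and the groups overlapped at 16 h (interaction -5.36 ± 0.36, adjusted p = 8.74e-09). Rnd1 went from 496 ± 87.5 to 11.4 ± 0.855 CPM in LPS cultures and F3 from 51.8 ± 6.18 to 1.65 ± 1.27, with control levels of 2.08 ± 0.792 and 1.89 ± 0.634 for Rnd1 and of 2.14 ± 0.903 and 2.63 ± 0.458 for F3 (interactions -5.32 ± 0.36 and -5.26 ± 0.54, adjusted p = 7.36e-09 and 8.79e-07).

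Lowered effects that faded were led by C130050O18Rik, Cnr2 and Lhfpl2. Cnr2 encodes the cannabinoid receptor 2 of immune cells. Cnr2 (ENSMUSG00000062585, GRCm38 chr4:135895394-135920207) had 23.8, 23.97, 33.97, 37.1 and 37.3 CPM in controls and 0.129, 0.1395, 0.127 and 0.161 CPM with LPS at 3.5 h, and 25.2, 30.1, 29.2, 28.98 and 24.5 CPM in controls and 7.03, 7.76, 8.13 and 7.86 CPM with LPS at 16 h. LPS cultures were below all controls at both times, with effects of -7.79 log2 units early and -1.84 late (interaction 5.95 ± 0.26, adjusted p = 1.80e-11). Lhfpl2 in LPS cultures returned from 12.9 ± 2.895 to 155 ± 11.3 CPM, where controls had 155 ± 10.5 (interaction 4.82 ± 0.16, adjusted p = 6.31e-12), and C130050O18Rik went from 0.261 ± 0.138 to 15 ± 2.102 CPM with LPS and from 10.97 ± 1.12 to 7.56 ± 1.82 in controls (6.36 ± 0.37, adjusted p = 1.01e-09). LPS cultures were below all controls for C130050O18Rik at 3.5 h and above them at 16 h. Its late effect of 0.99 (adjusted p = 0.00111) was just under the threshold of 1, so it was classed as faded and not as reversed.

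Effects that grew higher were led by Arg1, Clic5 and Kdr, and those that grew lower by Ube2c, Ccna2 and Slco2b1. Clic5, a chloride channel family gene, rose from 0.817 ± 0.133 to 43.8 ± 14.9 CPM in LPS cultures (interaction 6.76 ± 0.54, adjusted p = 3.81e-08). Kdr, which encodes a receptor of vascular endothelial growth factor, rose from 4.097 ± 1.28 to 55.3 ± 10.4 CPM with LPS while it fell from 6.86 ± 2.13 to 0.988 ± 0.188 in controls (6.54 ± 0.33, adjusted p = 4.57e-10). Slco2b1, an organic anion transporter gene, fell to 0.135 ± 0.0264 CPM in LPS cultures at 16 h against 16.9 ± 5.07 in controls (-5.50 ± 0.47, adjusted p = 3.06e-08). Arg1, Ube2c and Ccna2 are described with their pathways.

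Reversals were rarer. Gprc5c, an orphan receptor gene, had 3.78, 4.27, 5.39, 6.44 and 5.98 CPM in controls and 28.9, 40.02, 39.6 and 39.98 CPM with LPS at 3.5 h, and 4.57, 4.53, 7.27, 6.65 and 5.25 CPM in controls and 0.577, 0.725, 0.577 and 0.648 CPM with LPS at 16 h. All LPS cultures were above all controls early and below them late (interaction -6.00 ± 0.27, adjusted p = 8.00e-11). Maml2, a Notch coactivator gene, and Zbtb8a, a zinc finger gene, did the same with interactions of -5.04 ± 0.24 (adjusted p = 1.60e-10) and -4.88 ± 0.30 (adjusted p = 2.28e-09). The opposite course was led by Cd300lf, an inhibitory receptor of myeloid cells: it had 7.85, 7.29, 7.51, 8.28 and 6.73 CPM in controls and 1.697, 1.65, 1.14 and 1.66 CPM with LPS at 3.5 h, and 3.57, 3.54, 3.23, 3.14 and 2.01 CPM in controls and 146, 126, 96.3 and 74.5 CPM with LPS at 16 h. Here the groups separated in both directions (interaction 7.45 ± 0.27, adjusted p = 1.59e-11). Rhov, another small GTPase gene, and Ppp1r12b, a myosin phosphatase subunit gene, had interactions of 5.76 ± 0.29 (adjusted p = 3.61e-10) and 5.74 ± 0.47 (adjusted p = 7.02e-08).

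On the raised side, effects that persisted were led by Ifit2, A530032D15Rik and Trim30b. Ifit2 (ENSMUSG00000045932, GRCm38 chr19:34550694-34576419), whose protein binds foreign RNA, had 12.6, 10.2, 6.91, 16.6 and 7.46 CPM in controls and 3663, 5213, 5089 and 5000 CPM with LPS at 3.5 h, and 9.31, 13.9, 20.3, 11.1 and 9.66 CPM in controls and 5443, 5057, 5379 and 3671 CPM with LPS at 16 h. The effect was 8.78 log2 units early and 8.57 late, with a 95% interval of the interaction from -0.99 to 0.57. A530032D15Rik and Trim30b had effects of 5.58 and 5.53 for the former, where 15.5% of its 100-base transcript windows occur in other genes, and of 6.44 and 6.82 for the latter. Trim30b was unresolved without both cultures that stood apart (interaction 0.51, adjusted p = 0.0841). On the lowered side were Pald1 (-4.63 and -4.46), Gpr183, which encodes an oxysterol receptor that guides immune cells (-4.49 and -4.13), and Tmem273 (-2.75 and -2.73). Pald1 itself fell with time in both arms, from 60.9 ± 14.99 to 12.96 ± 1.66 CPM in controls and from 2.45 ± 0.205 to 0.585 ± 0.254 with LPS.

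Each function list below was counted in the fit over all genes, beside the 13.5% of all tested genes whose effect moved up and the 12.8% whose effect moved down. Inflammatory cytokines were still raised at 16 h, and more of them moved down than up. Of 24 listed, 19 were tested, 16 were higher with LPS at 3.5 h and 18 at 16 h, and the median LPS effect went from 6.48 to 4.26 log2 units. The effect moved down in 6 and up in 4, with a median interaction of -1.05, and with no filter 5 of 24 moved down and 4 up. Tnf (ENSMUSG00000024401, GRCm38 chr17:35199381-35202007) had 129.5, 132, 94.2, 158 and 119 CPM in controls and 3015, 2649, 2667 and 2778 CPM with LPS at 3.5 h, and 25.96, 23.96, 19.1, 28.5 and 32.3 CPM in controls and 299, 252, 329 and 407 CPM with LPS at 16 h. Its level fell over time in both arms (-3.11 with LPS and -2.29 in controls), and the LPS effect, 4.46 early and 3.63 late, had an interaction of -0.83 ± 0.23 (adjusted p = 0.00747) with a 95% interval from -1.32 to -0.33, so that it passed the adjusted p but not the 2-fold threshold.

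Il27, a cytokine subunit that restrains T cell responses, faded. It had 1.25, 1.35, 1.28, 1.29 and 1.399 CPM in controls and 1124, 922, 997 and 1329 CPM with LPS at 3.5 h, and 1.68, 1.33, 1.56, 2.02 and 1.94 CPM in controls and 64.2, 67.4, 49.9 and 97.7 CPM with LPS at 16 h. No control reached any LPS culture at either time, and the interaction was -4.34 ± 0.24 (adjusted p = 7.63e-10). Il15, a growth factor of NK and memory T cells, faded (interaction -3.19 ± 0.23, adjusted p = 9.33e-09), as it fell from 621 ± 85.1 to 186 ± 27.5 CPM with LPS and rose from 5.24 ± 0.816 to 14.3 ± 2.99 in controls. Il10, the anti-inflammatory cytokine, faded (interaction -1.82 ± 0.29, adjusted p = 7.34e-05) and the T cell co-stimulator Tnfsf9 did too (interaction -4.07 ± 0.33, adjusted p = 5.44e-08). Inhba, which encodes an activin subunit, and Il1rn, the interleukin-1 receptor antagonist, grew higher (interactions 3.07 ± 0.59 and 2.01 ± 0.26, adjusted p = 4.70e-04 and 6.89e-06), and Il1rn reached 13130 ± 1874 CPM with LPS at 16 h against 686 ± 181 in controls.

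Several cytokine interactions, called or not, depended on the control cultures. Il1b had 1293 ± 340 CPM with LPS at 3.5 h and 1168 ± 199.5 at 16 h, a change of -0.15 log2 units, and its interaction of -1.66 ± 0.60 (adjusted p = 0.0317) came with control levels of 0.883 ± 0.364 and 2.56 ± 2.22 CPM. The latter held 6.46 CPM in control replicate 4, and without that culture the interaction was -0.96 (adjusted p = 0.0577). The call was also lost without control replicate 1 or 5 at 3.5 h, LPS replicate 3 or 4 at 3.5 h or LPS replicate 1, 2 or 3 at 16 h (adjusted p of 0.0512 to 0.0606), in limma voom (0.0798) and with no filter (0.0745). Osm, the oncostatin M gene, grew higher (interaction 2.35 ± 0.29, adjusted p = 5.25e-06) as controls fell from 48.2 ± 8.96 to 11.2 ± 1.66 CPM and LPS cultures had 58.5 ± 18.1 and 69.5 ± 17.1. Il6 went from 451 ± 108 to 61.6 ± 19.9 CPM with LPS, but at 16 h a single control culture held all of its control counts, so the interaction, which was not called (adjusted p = 0.146), rests on 1 control culture and no fold is given. Ifnb1, the interferon beta gene, had 225, 186, 102 and 158 CPM with LPS at 3.5 h and 2.64, 3.55, 1.37 and 4.36 CPM at 16 h, all above every control. The control groups held 11 and 3 counts in all, so no fold is given, and the interaction was not called (adjusted p = 0.119), though DESeq2 (adjusted p = 0.00162), limma voom (0.0119) and edgeR without control replicate 2 at 3.5 h (0.0428) called it. The change inside the LPS cultures was -5.82 (adjusted p = 2.61e-09).

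Chemokines split in the same way. Of 20 listed, 19 were tested, 18 were higher with LPS at 3.5 h and 17 at 16 h, and the effect moved down in 6 and up in 4 (median interaction -0.28). Without both cultures that stood apart it moved down in 8 and up in 4, and with no filter 5 of 20 moved down and 4 up. Ccl4 (ENSMUSG00000018930, GRCm38 chr11:83662584-83664683), an inflammatory chemokine, had 195, 248, 136, 130.4 and 114 CPM in controls and 11380, 7804, 9885 and 9992 CPM with LPS at 3.5 h, and 89.97, 76.7, 63.6, 73.8 and 189 CPM in controls and 668, 720.2, 392 and 1202 CPM with LPS at 16 h. LPS cultures were above controls at both times, and the effect faded (interaction -2.97 ± 0.48, adjusted p = 8.28e-05). Ccl3, a related ligand, faded (interaction -1.88 ± 0.27, adjusted p = 2.55e-05). Cxcl10 (ENSMUSG00000034855, GRCm38 chr5:92346638-92348889), a ligand of CXCR3, had 9.77, 10.8, 3.13, 8.15 and 3.04 CPM in controls and 12910, 12730, 15380 and 13910 CPM with LPS at 3.5 h, and 0.678, 0.842, 0.701, 0.5801 and 0.678 CPM in controls and 3438, 3631, 2817 and 3522 CPM with LPS at 16 h. Its level changed by -2.04 log2 units in LPS cultures but by -3.32 in controls, so that the LPS effect grew from 10.94 to 12.22 (interaction 1.28 ± 0.43, adjusted p = 0.0213).

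Ccl5, a T cell attractant, grew as its own level did. It had 2549 ± 294 CPM with LPS at 3.5 h and 7192 ± 719.8 at 16 h over controls of 2.21 ± 0.859 and 2.40 ± 0.565 (interaction 1.38 ± 0.32, adjusted p = 0.00194). Ccl12, a monocyte attractant, grew (interaction 3.38 ± 0.42, adjusted p = 5.54e-06). Ccl2, also a monocyte attractant, had effects of 3.84 and 4.13 and an interaction of 0.29 ± 0.39 (adjusted p = 0.557). Mmp13, a collagenase gene, shows shared drift. Its level was 3247 ± 296 CPM with LPS at 3.5 h and 729 ± 124 at 16 h, and 156 ± 15.4 and 42.96 ± 6.15 in controls, so that a change of -2.15 log2 units in LPS cultures left an LPS effect of 4.38 early and 4.08 late (interaction -0.30 ± 0.18, 95% interval from -0.68 to 0.08).

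**Figure D3:**
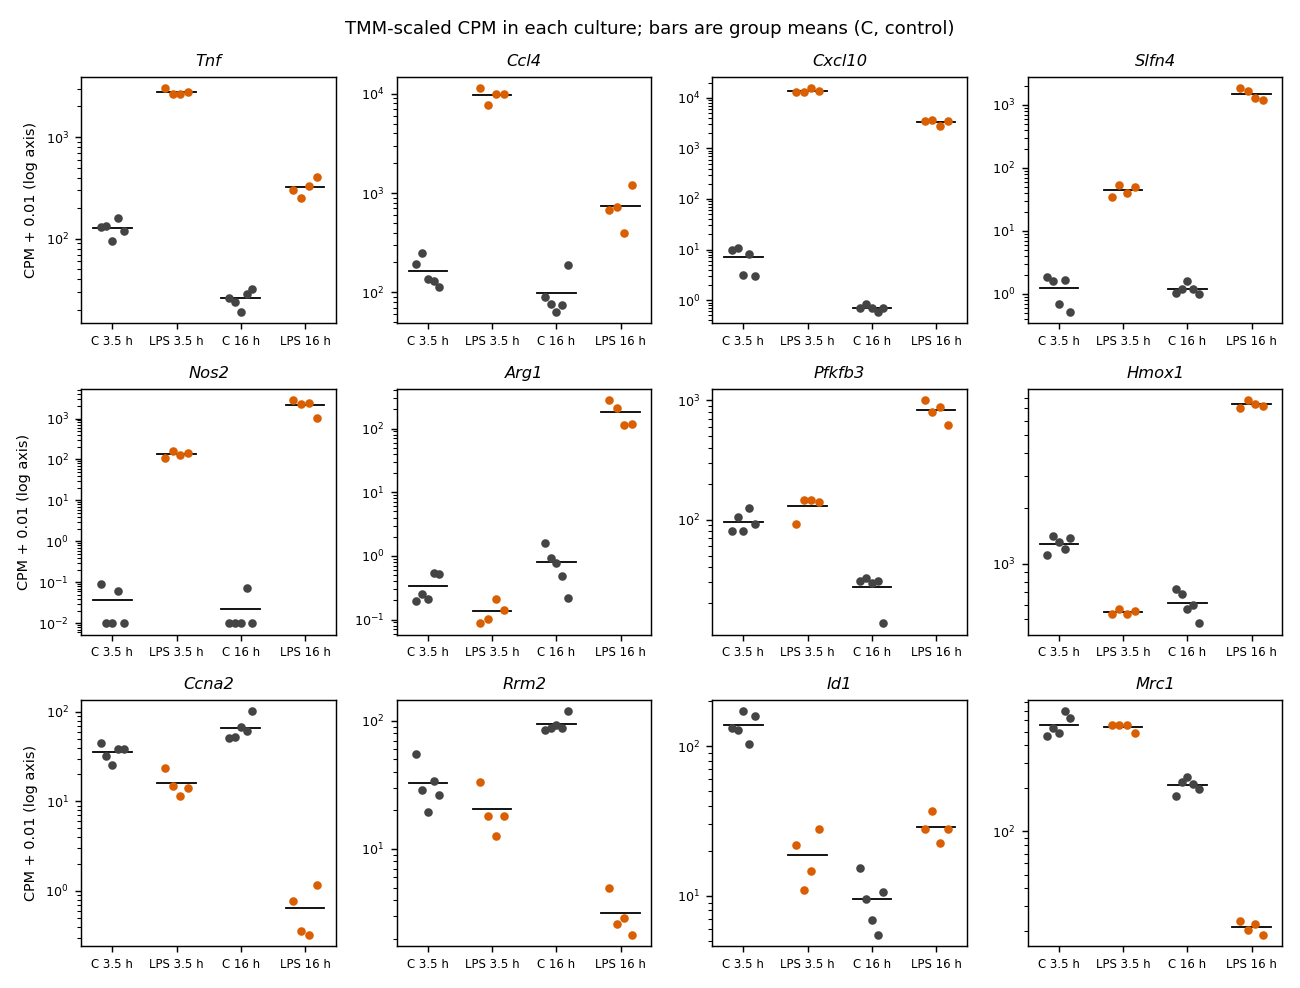
TMM-scaled CPM of 12 genes in each of the 18 cultures, with 0.01 added and on a log axis; points are cultures (dark grey, control; orange, LPS) and bars are group means. Tnf and Cxcl10 fall with time in both arms, Nos2 and Slfn4 rise in LPS cultures, and Ccna2, Rrm2 and Mrc1 fall below all controls with LPS at 16 h.

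NF-kappaB binds a 10-base site, and its consensus was searched by name on both strands of the RefSeq promoter windows, from 250 bases before to 50 after each start (GRCm38.p6). A match is a description of the sequence and not evidence of binding. It was found in 5.41% of the 8541 windows of 6711 tested genes, in 10.6% of the windows of genes whose raised effect faded, in 8.44% of those that grew higher and in 7.81% of those that persisted higher, and in 5 of 12 chemokine genes. Among these 5 were genes that faded (2 of 4), grew (1 of 2) and were unresolved (2 of 6). The 150 bases before the start of Cxcl10, whose effect grew, and of Il6, unresolved, are shown because both hold the site, which is in capitals.
Cxcl10 (chr5:92348890-92349039, minus strand): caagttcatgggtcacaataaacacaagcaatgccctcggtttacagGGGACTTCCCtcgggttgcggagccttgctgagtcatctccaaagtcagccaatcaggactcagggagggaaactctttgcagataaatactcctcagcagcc
Il6 (chr5:30012964-30013113, plus strand): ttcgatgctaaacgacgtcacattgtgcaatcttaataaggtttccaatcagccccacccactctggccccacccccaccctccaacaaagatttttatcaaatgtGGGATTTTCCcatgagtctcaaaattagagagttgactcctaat

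Many immediate early genes and feedback genes of the pathway fell with time in the control cultures, and several in LPS cultures too. None of the 20 immediate early genes tested moved down and 4 moved up (median 0.65). Without LPS replicate 4 at 16 h, 5 moved up and 1 down. With time, 8 fell and 0 rose in control cultures, and 5 fell and 3 rose in LPS cultures. Fos, the AP-1 subunit, was below controls with LPS at 3.5 h (49.6 ± 5.35 against 166 ± 72.05 CPM) and above them at 16 h (89.7 ± 5.25 against 44.4 ± 8.37), with an interaction of 2.75 ± 0.33 (adjusted p = 3.81e-06). Nr4a1, an orphan nuclear receptor, moved up (interaction 3.73 ± 0.40, adjusted p = 1.17e-06) from a lowered effect. Of the 26 feedback genes tested, 20 were higher with LPS at 3.5 h and 21 at 16 h, 5 moved up and 5 down. Over the same hours 12 fell and 0 rose in controls, and 11 fell and 3 rose in LPS cultures. Socs1, which blocks JAK kinases, faded (interaction -2.05 ± 0.29, adjusted p = 1.89e-05), from 717 ± 101 to 97.8 ± 14.5 CPM with LPS, and Nfkbiz, a nuclear IkappaB protein, also faded (interaction -2.15 ± 0.25, adjusted p = 2.74e-06). Dusp1, the phosphatase that turns off p38, grew higher (interaction 2.80 ± 0.21, adjusted p = 1.44e-08), and the lowered effect on Dusp4, another MAP kinase phosphatase, faded (interaction 1.53 ± 0.50, adjusted p = 0.0187; 0.0744 in limma voom). Nfkbia, the IkappaB alpha gene, had effects of 3.02 and 3.62 and was not called (interaction 0.60 ± 0.27, adjusted p = 0.0827).

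The type I interferon response genes had similar median effects at both times, while single members moved up or down. All 40 genes were tested and all 40 were higher with LPS at both times, with median effects of 4.61 and 4.78. The effect moved up in 8 and down in 8, 6 persisted and 18 were unresolved. Slfn4 (ENSMUSG00000000204, GRCm38 chr11:83175186-83190216), a Schlafen family gene, had 1.81, 1.61, 0.669, 1.64 and 0.507 CPM in controls and 34.8, 52.6, 40.4 and 49.99 CPM with LPS at 3.5 h, and 1.02, 1.18, 1.58, 1.18 and 0.979 CPM in controls and 1836, 1692, 1293 and 1183 CPM with LPS at 16 h. Its effect went from 5.15 to 10.30 (interaction 5.15 ± 0.41, adjusted p = 4.04e-08). Irf7 (ENSMUSG00000025498, GRCm38 chr7:141262706-141266481), the factor that amplifies interferon production, had 131, 115, 42.5, 77.02 and 38.9 CPM in controls and 729, 913, 846 and 1034 CPM with LPS at 3.5 h, and 38.3, 56.6, 54.4, 38.9 and 20.6 CPM in controls and 5063, 5393, 4517 and 4028 CPM with LPS at 16 h. LPS cultures were above controls at both times and higher late than early (interaction 3.38 ± 0.47, adjusted p = 1.88e-05).

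Ifi44, an interferon-induced gene of unsettled function, grew (interaction 3.71 ± 0.70, adjusted p = 3.67e-04). The sensor of double-stranded RNA Ifih1 faded (interaction -1.70 ± 0.27, adjusted p = 6.34e-05), from 1763 ± 208 to 421 ± 50.9 CPM with LPS, and the antiviral GTPase Mx2 did too (interaction -1.54 ± 0.37, adjusted p = 0.0026). Among 13 guanylate-binding proteins and immunity-related GTPases, all were raised at both times, 3 moved up and 2 down. The 2 were Igtp (-1.32 ± 0.13, adjusted p = 2.42e-07) and Irgm2 (-1.40 ± 0.26, adjusted p = 2.62e-04), which share 5.16% and 3.01% of their 100-base windows. The 3 were Gbp2 (1.14 ± 0.33, adjusted p = 0.00957), Tgtp1 (3.74) and Gbp6 (1.62). The call of Tgtp1 was lost in limma voom (adjusted p = 0.248) and without control replicate 4 at 3.5 h (0.0857). Gbp6 lost its call in 7 alternatives, among them limma voom (0.0748) and no filter (0.102).

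The interferon-stimulated response element, searched on both strands as a pair of GAAA repeats with any 2 bases between them, was in 3.65% of all promoter windows and in 45.7% of the windows of the interferon list, or 15 of its 29 genes with a window. It was in 3 of 5 genes that faded, 3 of 7 that grew, 1 of 4 that persisted and 8 of 13 unresolved. Over all tested genes, it was in 7.80% of the windows of raised effects that faded, 8.98% that persisted and 8.44% that grew. The 150 bases before the start are shown for 1 gene of each of 3 classes, with the element in capitals: Ifit1 faded (-1.53 ± 0.57, adjusted p = 0.0357), Oas3 grew (1.78 ± 0.27, adjusted p = 4.52e-05) and Isg15 was unresolved (0.26 ± 0.39, adjusted p = 0.602). Overlapping elements run together in Isg15, and in Ifit1 they lie on the other strand.
Ifit1 (chr19:34640739-34640888, plus strand): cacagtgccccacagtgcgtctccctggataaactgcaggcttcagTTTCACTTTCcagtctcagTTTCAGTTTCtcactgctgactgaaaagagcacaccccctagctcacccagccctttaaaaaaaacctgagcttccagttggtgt
Oas3 (chr5:120777660-120777809, minus strand): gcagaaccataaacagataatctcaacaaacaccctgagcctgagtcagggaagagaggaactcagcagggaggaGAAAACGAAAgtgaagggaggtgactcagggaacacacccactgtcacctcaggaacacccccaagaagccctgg
Isg15 (chr4:156200819-156200968, minus strand): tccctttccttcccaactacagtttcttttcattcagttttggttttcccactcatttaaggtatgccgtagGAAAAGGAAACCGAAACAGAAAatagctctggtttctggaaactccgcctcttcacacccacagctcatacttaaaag

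No antigen presentation gene among those tested moved down, while more co-stimulatory genes moved down than up. Of 17 genes of MHC class I processing, 14 were raised at 3.5 h and 16 at 16 h, 5 moved up and none down (median 0.73). H2-K1, a classical class I heavy chain, had 2883 ± 156 CPM with LPS at 3.5 h and 6255 ± 711 at 16 h against 1403 ± 156 and 1254 ± 231 in controls (interaction 1.28 ± 0.19, adjusted p = 3.47e-05), and H2-Q7 moved up (interaction 2.11 ± 0.46, adjusted p = 0.00117), with 12.0% of its windows shared with other H2-Q genes. Of the 6 class II genes tested, 3 moved up, and with no filter 3 of 10 moved up and 1 down. Without LPS replicate 4 at 16 h, or without both cultures that stood apart, 2 of 6 moved up. H2-Eb1 was among the 3 of the main fit (2.10 ± 0.41, adjusted p = 4.50e-04), with LPS levels of 36.6 ± 12.5 and 48.96 ± 5.497 CPM while controls fell from 21.1 ± 6.51 to 6.604 ± 2.63. Of 11 co-stimulatory and checkpoint genes, 5 faded and 2 grew (with no filter, 5 of 13 moved down and 4 up). The 2 were Cd274, which encodes PD-L1 (1.74 ± 0.33, adjusted p = 3.38e-04), and Cd86 (1.31 ± 0.33, adjusted p = 0.00319). Cd40 faded (interaction -1.41 ± 0.16, adjusted p = 1.45e-06), although it stayed at 569.5 ± 60.7 CPM against 10.1 ± 0.627 in controls, Icosl also faded (interaction -2.45 ± 0.60, adjusted p = 0.0029) and Tnfsf4, which encodes OX40 ligand, faded too (interaction -3.86 ± 0.74, adjusted p = 3.48e-04; -3.21 without control replicate 5 at 16 h).

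Enzymes of nitric oxide, arginine and itaconate metabolism were among the effects that grew: 6 of 11 moved up and 1 down, with a median interaction of 2.09. Nos2 (ENSMUSG00000020826, GRCm38 chr11:78920787-78960254), the inducible nitric oxide synthase, had 0.0832, 0, 0, 0.0528 and 0 CPM in controls and 107, 163, 129 and 145 CPM with LPS at 3.5 h, and 0, 0, 0, 0.0627 and 0 CPM in controls and 2850, 2240, 2367 and 1029 CPM with LPS at 16 h. The control groups held 9 and 4 counts in all, so the interaction of 5.13 ± 1.45 (adjusted p = 0.00573) rests on few control reads and became 4.35 (adjusted p = 0.0562) without control replicate 1 at 3.5 h. Inside the LPS cultures the rise was 3.96 (adjusted p = 1.68e-07). Arg1 (ENSMUSG00000019987, GRCm38 chr10:24915221-24927484), arginase 1, which competes with Nos2 for arginine, had 0.183, 0.2404, 0.204, 0.528 and 0.507 CPM in controls and 0.0771, 0.09297, 0.203 and 0.134 CPM with LPS at 3.5 h, and 1.61, 0.922, 0.766, 0.4704 and 0.207 CPM in controls and 282, 213, 115 and 117 CPM with LPS at 16 h. The early groups overlapped and every late LPS culture was above all other cultures (interaction 9.18 ± 0.87, adjusted p = 6.93e-08), the largest interaction among the 8748 genes. The early LPS group held 20 counts.

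Acod1, which makes itaconate, grew (interaction 2.23 ± 0.70, adjusted p = 0.0146) with 3808 ± 701 and 5473 ± 1321 CPM in LPS cultures over controls of 15.03 ± 8.61 and 4.59 ± 4.35. Ass1, which rebuilds arginine from citrulline, grew (interaction 2.09 ± 0.44, adjusted p = 8.97e-04), with 26.9% of its windows shared with a second locus. Odc1, the first enzyme of polyamine synthesis, faded (interaction -1.32 ± 0.20, adjusted p = 4.47e-05), from 630.1 ± 50.7 to 156 ± 30.5 CPM with LPS. Of 12 prostaglandin and leukotriene genes, 2 moved up and 4 down. Ptges, which makes prostaglandin E2, grew (interaction 2.93 ± 0.24, adjusted p = 4.30e-08). Ptgs2, the inducible cyclooxygenase, had 424 ± 36.5 and 414 ± 88.8 CPM in LPS cultures while controls fell from 22.7 ± 13.4 to 3.94 ± 1.96 (interaction 2.49 ± 0.54, adjusted p = 0.00113). Hpgd, which breaks prostaglandins down, overlapped between groups early (24.6 ± 5.01 against 23.5 ± 3.76 CPM) and fell to 1.11 ± 0.279 with LPS at 16 h against 45.4 ± 12.5 in controls (interaction -5.40 ± 0.30, adjusted p = 9.22e-10).

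Of 21 glycolysis genes tested, 2 were higher and 2 lower with LPS at 3.5 h, and 9 higher and 1 lower at 16 h. With library size alone as scaling, 3 were higher and 3 lower at 16 h. The effect moved up in 8 (38.1%) and down in 1 (median 0.79). Pfkfb3 (ENSMUSG00000026773, GRCm38 chr2:11471433-11554077), which makes the activator of phosphofructokinase, had 80.4, 105, 80.01, 125 and 91.8 CPM in controls and 92.8, 146, 147 and 139.6 CPM with LPS at 3.5 h, and 30.8, 32.5, 29.8, 30.5 and 13.5 CPM in controls and 1012, 795, 889 and 618 CPM with LPS at 16 h. The groups overlapped early and were apart late (interaction 4.47 ± 0.32, adjusted p = 1.44e-08). Ldha, lactate dehydrogenase A, rose from 735 ± 78.3 to 3309 ± 473 CPM in LPS cultures, where controls had 778 ± 35.4 and 1521 ± 201 (interaction 1.21 ± 0.17, adjusted p = 1.45e-05), and the lactate exporter Slc16a3 rose in both arms (3.45 with LPS and 1.46 in controls, interaction 1.99 ± 0.27, adjusted p = 1.22e-05). Aldoc, the aldolase C gene, was the member that moved down (-2.40 ± 0.18, adjusted p = 1.45e-08). Glycolysis genes also rose in controls, 7 of 21 against 3 that fell.

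Targets of HIF-1, the factor stabilised by low oxygen and by LPS, moved up in 10 of 22 and down in 2 (median 1.03). Vegfa, the vascular growth factor gene, was below controls with LPS at 3.5 h (35.04 ± 9.82 against 153 ± 33.7 CPM). At 16 h it had 114 ± 40.6 against 58.9 ± 17.2 CPM, an effect that was not called. The lowered effect thus faded (interaction 3.08 ± 0.39, adjusted p = 6.17e-06). Egln3, a prolyl hydroxylase that marks HIF-1 for decay, reversed from lower to higher (3.03 ± 0.48, adjusted p = 6.36e-05). Cited2, which competes with HIF-1 for its coactivator, faded (interaction -3.36 ± 0.27, adjusted p = 3.84e-08), and Pdk1, which shuts pyruvate out of the mitochondrion, moved down (interaction -1.15 ± 0.18, adjusted p = 4.56e-05) as controls rose from 27.9 ± 3.43 to 87.7 ± 15.1 CPM. The Hif1a transcript had 196 ± 17.5 and 200 ± 18.4 CPM with LPS and 146 ± 24.6 and 74.7 ± 9.86 in controls, and its interaction of 1.00 ± 0.18 (adjusted p = 1.61e-04) sat just under the threshold of 1, which it passed without some single cultures, at up to 1.06. The core sequences ACGTG and GCGTG, on either strand, were in 63.4% of all promoter windows, 76.0% of those of HIF-1 targets and 78.8% of those of glycolysis genes. Over the function lists the share ran from 0% (MHC class II, 5 windows) to 85.7% (circadian clock, 7 windows), with 75% for mitosis. It was 53.2% for all genes whose effect grew higher.

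Calls in the TCA cycle and respiratory chain lists were downward only, with 20% and 2.94% of members called against 12.8% of all genes. No gene of the TCA cycle moved up and 4 of 20 moved down, among them Idh2, which makes NADPH (-2.06 ± 0.22, adjusted p = 1.04e-06), and Suclg2, a succinyl-CoA ligase subunit (-1.50 ± 0.17, adjusted p = 1.13e-06; 8.60% of windows shared with a second locus). Of 34 respiratory chain genes, 1 moved down and none up, with a median of -0.49. The number down was 0 without control replicate 5 at 16 h, 8 without LPS replicate 4 at 16 h and 2 without both. Cytosolic ribosomal protein genes moved down in 18 of 39 and up in none, with a median of -1.14. For 36 of the 39, Rpl14 among them, no LPS effect was called at either time. At 3.5 h 0 were called, and at 16 h 3 were lower. The count of 18 depends on the 2 cultures that stood apart, with 8 called without control replicate 5 at 16 h, 32 without LPS replicate 4 at 16 h and 24 without both. Rpsa, a small subunit protein, had 2039, 1798, 2089, 1813 and 7430 CPM in controls and 919, 1126, 773 and 2582 with LPS at 16 h, and 1862, 1902, 1964, 1227 and 1530 CPM in controls and 3819, 2051, 2661 and 2892 with LPS at 3.5 h. The interaction was -1.92 ± 0.60 (adjusted p = 0.0147) and -1.27 (adjusted p = 0.0161) without control replicate 5 at 16 h, its late groups overlapped, and 18.4% of its windows occur in pseudogenes. Rpl14, which shares 18.1% of its windows with a pseudogene, had an interaction of -1.59 ± 0.55 (adjusted p = 0.0249). It was -1.02 at its smallest among the alternatives, and the call was lost without LPS replicate 1 (0.0550) or 3 (0.0547) at 16 h and with no filter (0.0589).

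**Figure D4:**
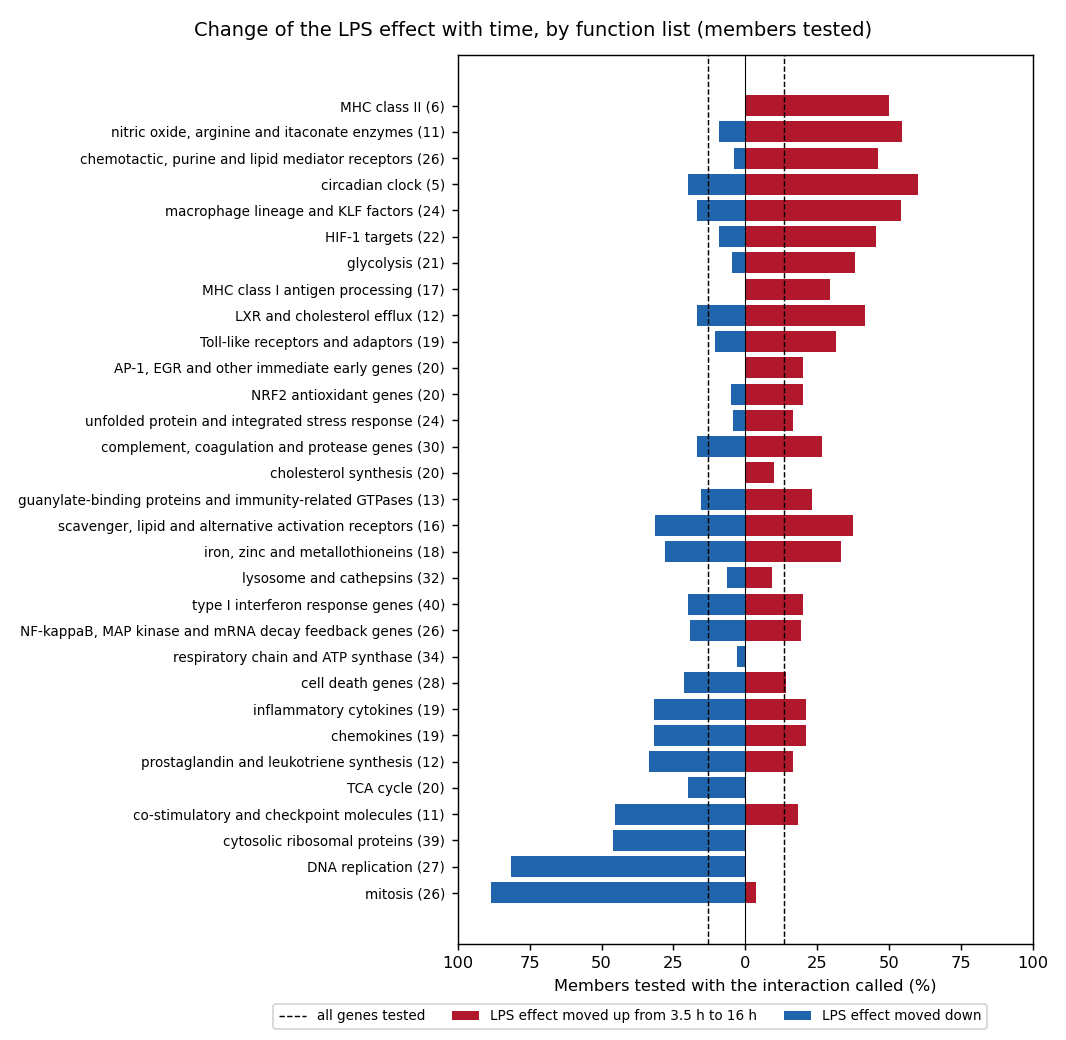
Share of the tested members of each function list (number in brackets) whose LPS effect moved up (red, right) or down (blue, left) from 3.5 to 16 h, in percent. Dashed lines mark the shares over all genes tested, 13.5% up and 12.8% down; mitosis (88.5% down) and DNA replication (81.5% down) stand farthest to the left.

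Heme oxygenase, a stress gene, reversed. Hmox1 (ENSMUSG00000005413, GRCm38 chr8:75093621-75100589), heme oxygenase 1, had 1113, 1418, 1318, 1206 and 1373 CPM in controls and 533, 567, 530.2 and 552 CPM with LPS at 3.5 h, and 728, 683, 569.5, 593 and 474 CPM in controls and 7037, 7785, 7393 and 7213 CPM with LPS at 16 h. LPS cultures were below all controls early and above them late (interaction 4.83 ± 0.16, adjusted p = 6.31e-12). Among 20 NRF2 antioxidant genes, Hmox1 was 1 of 4 that moved up and 1 moved down, which was 0 without control replicate 5 at 16 h and without both cultures that stood apart. The lowered effect on Gclm, a glutathione synthesis subunit, faded (interaction 1.68 ± 0.22, adjusted p = 7.86e-06). Of 24 genes of the unfolded protein and integrated stress response, 4 moved up and 1 down, with 3 down without LPS replicate 4 at 16 h and 2 without control replicate 5 at 16 h or without both, and Ddit3, which encodes CHOP, grew (interaction 2.40 ± 0.20, adjusted p = 4.75e-08). Of 12 LXR and cholesterol efflux genes, 5 moved up and 2 down. Nr1h3, which encodes the sterol receptor LXR alpha, had 27.3 ± 2.18 CPM with LPS against 60.8 ± 8.02 in controls early and 132 ± 11.1 against 23.6 ± 2.41 late (interaction 3.64 ± 0.15, adjusted p = 2.10e-11), and Cyp27a1, which makes its ligand 27-hydroxycholesterol, moved down (interaction -3.15 ± 0.40, adjusted p = 6.85e-06). Of 20 cholesterol synthesis genes, 2 moved up and none down (4 and 1 of 24 with no filter), and Mvd, a decarboxylase of the pathway, was among the 2 (1.83 ± 0.27, adjusted p = 3.27e-05). Scd2, a fatty acid desaturase counted with the LXR genes, moved up (interaction 2.03 ± 0.23, adjusted p = 1.91e-06) from a lowered effect.

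Of all lists, the 2 of the cell cycle had the largest share called in a single direction. M-CSF, with which the cells were grown, keeps BMDMs dividing, and its part in these results was not tested. Of 27 DNA replication genes tested, 5 were lower and 2 higher with LPS at 3.5 h, and 21 were lower and 0 higher at 16 h. The effect moved down in 22 (81.5%) and up in 0, with a median of -1.97. In control cultures 20 of the 27 rose from 3.5 to 16 h, with a median of 1.17, and in LPS cultures 15 fell and 1 rose. Rrm2 (ENSMUSG00000020649, GRCm38 chr12:24708241-24714146), the regulated subunit of ribonucleotide reductase, had 54.6, 28.6, 19.3, 34.1 and 26.3 CPM in controls and 32.97, 18.1, 12.7 and 18.2 CPM with LPS at 3.5 h, and 84.1, 87.8, 92.05, 87.8 and 118 CPM in controls and 4.99, 2.59, 2.88 and 2.13 CPM with LPS at 16 h. Controls rose while LPS cultures fell, and the groups, which overlapped early, were apart late (interaction -4.23 ± 0.43, adjusted p = 7.26e-07). Tk1, thymidine kinase, moved down (interaction -3.94 ± 0.43, adjusted p = 1.41e-06). Mcm10, a replication initiator, was higher with LPS early (1.14) and lower late (-2.05; interaction -3.19 ± 0.34, adjusted p = 8.74e-07).

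Many mitosis genes were already lower at 3.5 h, and nearly all were lower still at 16 h. Of 26 tested, 14 were lower with LPS at 3.5 h and 25 at 16 h, with median effects of -1.09 and -4.74, and the effect moved down in 23 (88.5%) and up in 1 (median -3.66). Without both cultures that stood apart it moved down in 24. Ccna2 (ENSMUSG00000027715, GRCm38 chr3:36564865-36572150), cyclin A2, had 44.9, 32.3, 25.8, 38.3 and 38.8 CPM in controls and 23.8, 14.8, 11.6 and 14.3 CPM with LPS at 3.5 h, and 50.9, 52.1, 66.99, 61.7 and 101 CPM in controls and 0.754, 0.343, 0.313 and 1.14 CPM with LPS at 16 h. LPS cultures were below all controls at both times (interaction -5.57 ± 0.45, adjusted p = 4.49e-08). Ube2c, the ubiquitin-conjugating enzyme of the anaphase-promoting complex, fell from 86.1 ± 26.4 to 3.199 ± 1.57 CPM with LPS (interaction -5.59 ± 0.56, adjusted p = 7.02e-07, and -4.99 without control replicate 5 at 16 h), and 22.8% of its exon bases overlap another gene. Cdk1, the mitotic kinase, moved down (interaction -2.20 ± 0.26, adjusted p = 2.86e-06). The single member that moved up was Tpx2, a spindle assembly factor, with 136, 118, 103 and 64.02 CPM in LPS cultures at 16 h and 43.0, 51.2, 56.1, 49.4 and 33.8 in controls (interaction 1.71 ± 0.26, adjusted p = 5.01e-05). Kif20a and Ccnf were not called, with interactions of -2.0 ± 1.01 (adjusted p = 0.111) and 0.35 ± 0.34 (adjusted p = 0.418). In bulk cultures, fewer dividing cells and less of these RNAs per cell cannot be told apart.

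**Figure D5:**
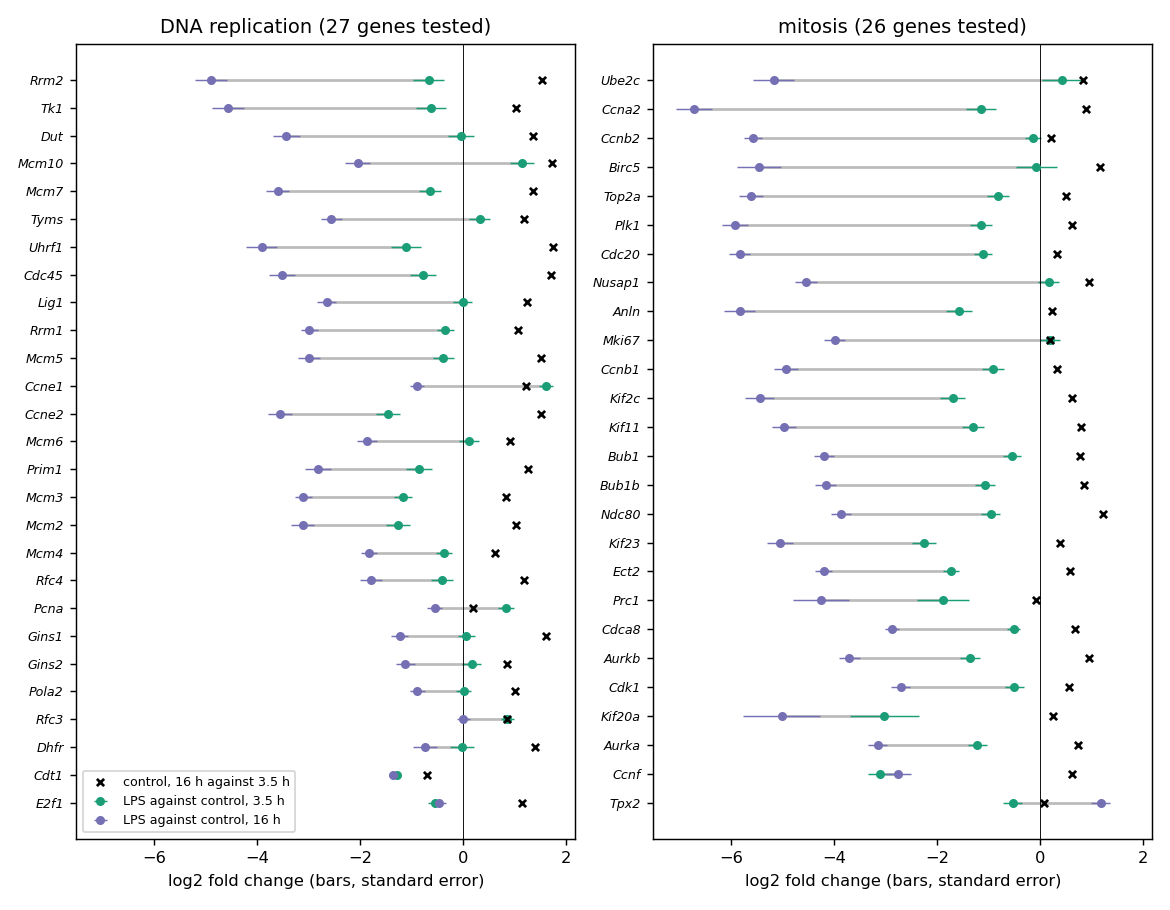
LPS effect of each DNA replication gene (left) and mitosis gene (right) at 3.5 h (green) and 16 h (purple), in log2 with standard errors, joined by a grey line; crosses are the change in control cultures from 3.5 to 16 h. Purple points lie left of green ones in nearly all genes, while most crosses lie to the right of 0; Tpx2 at the bottom right runs the other way.

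Promoter sequences of the mitosis genes were described in the same way, with no test against the LPS effect. The cell cycle homology region element, searched as TTTGAA on both strands, was in 83.3% of their windows (18 of 22 genes) against 11.9% of all windows, and the CCAAT box in 79.2% (17 of 22 genes) against 37.3%. Among DNA replication genes the shares were 7.69% and 57.7%. The element was in 20% of the windows of all genes whose effect grew lower. These 2 motifs were chosen with the lists' results known. Among mitosis genes with a window, the element was in 17 of 21 that grew lower and in 1 of 1 unresolved. The list thus holds no contrast between classes. The 150 bases before the start are shown for 4 genes whose effect grew lower, with the element in capitals, since it lies close to the start: 24 bases before it in Ube2c, 66 and 10 in Cdk1, 13 in Cdc20 and 14 in Kif11. Cdc20 and Kif11, an activator of the anaphase-promoting complex and a spindle motor, had interactions of -4.72 ± 0.28 (adjusted p = 1.09e-09) and -3.67 ± 0.31 (adjusted p = 6.80e-08).
Ube2c (chr2:164769779-164769928, plus strand): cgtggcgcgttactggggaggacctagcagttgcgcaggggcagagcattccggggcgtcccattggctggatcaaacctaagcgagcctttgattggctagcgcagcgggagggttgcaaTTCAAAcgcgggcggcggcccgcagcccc
Cdk1 (chr10:69352913-69353062, minus strand): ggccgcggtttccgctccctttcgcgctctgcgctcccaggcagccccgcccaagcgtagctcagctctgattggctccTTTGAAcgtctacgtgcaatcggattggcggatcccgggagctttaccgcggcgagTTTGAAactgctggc
Cdc20 (chr4:118437344-118437493, minus strand): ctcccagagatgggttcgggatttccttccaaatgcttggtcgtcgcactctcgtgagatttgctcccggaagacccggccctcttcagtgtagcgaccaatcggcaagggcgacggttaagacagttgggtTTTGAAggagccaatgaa
Kif11 (chr19:37376232-37376381, plus strand): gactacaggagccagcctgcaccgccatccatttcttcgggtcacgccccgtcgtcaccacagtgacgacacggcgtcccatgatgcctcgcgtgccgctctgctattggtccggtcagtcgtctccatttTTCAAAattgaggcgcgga

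Of 16 scavenger, lipid and alternative activation receptors, 6 moved up and 5 down, and with no filter 6 of 22 moved up and 8 down. Mrc1 (ENSMUSG00000026712, GRCm38 chr2:14229392-14332057), the mannose receptor CD206, had 468, 532, 490.1, 691 and 617 CPM in controls and 552, 553, 557 and 492 CPM with LPS at 3.5 h, and 177, 221, 240, 213 and 198 CPM in controls and 23.5, 20.5, 22.7 and 18.9 CPM with LPS at 16 h. The early groups overlapped, and late LPS cultures were below all controls (interaction -3.24 ± 0.17, adjusted p = 3.23e-10). Clec10a, a galactose lectin of alternatively activated cells, moved down (interaction -3.66 ± 0.25, adjusted p = 7.98e-09), and Marco, a scavenger receptor for bacteria, moved up (interaction 4.47 ± 0.37, adjusted p = 6.99e-08), from 17.1 ± 4.59 to 389.9 ± 163 CPM with LPS. Fcgr1, the high affinity IgG receptor, moved up (interaction 2.02 ± 0.23, adjusted p = 2.16e-06).

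Of 19 Toll-like receptors and adaptors, 6 moved up and 2 down. Tlr2, the receptor for bacterial lipopeptides, fell in both arms, from 1412 ± 73.9 to 103 ± 8.24 CPM with LPS and from 282 ± 63.9 to 55.6 ± 6.83 in controls, and the effect faded (interaction -1.44 ± 0.19, adjusted p = 1.14e-05). Tlr9, the receptor for bacterial DNA, moved up (interaction 4.40 ± 0.99, adjusted p = 0.00196). Tlr4, the LPS receptor itself, was not called, with 21.3 ± 3.96 and 49.5 ± 8.63 CPM with LPS, 32.6 ± 7.34 and 47.03 ± 11.1 in controls and an interaction of 0.69 ± 0.29 (adjusted p = 0.0587, 95% interval from 0.08 to 1.30). Of 26 chemotactic, purine and lipid mediator receptors, 12 moved up and 1 down (median 0.82), with 2 down without LPS replicate 4 at 16 h or without both cultures that stood apart. Adora2b, an adenosine receptor, moved up (interaction 3.15 ± 0.23, adjusted p = 1.44e-08) and C5ar1, the C5a receptor, was the member that moved down (-1.57 ± 0.17, adjusted p = 1.23e-06). Ccr7, the lymph node homing receptor, moved up (interaction 3.06 ± 0.75, adjusted p = 0.00338) at low counts, with 9.17 ± 2.21 CPM at most.

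Lineage and KLF transcription factors moved up in 13 of 24 and down in 4 (median 1.01), with 10 lower with LPS at 3.5 h and 2 at 16 h. Cebpa, a myeloid lineage factor, moved up (interaction 2.69 ± 0.15, adjusted p = 4.57e-10). Irf8 and Cebpd, early induced factors of the macrophage response, faded (interactions -2.12 ± 0.22 and -2.41 ± 0.15, adjusted p = 6.08e-07 and 2.60e-09). Id1 (ENSMUSG00000042745, GRCm38 chr2:152736251-152737410), an inhibitor of helix-loop-helix factors, had 131, 129, 170.4, 103 and 158 CPM in controls and 21.8, 10.9, 14.6 and 27.8 CPM with LPS at 3.5 h, and 15.2, 9.48, 6.91, 5.47 and 10.6 CPM in controls and 28.1, 36.9, 22.4 and 28.1 CPM with LPS at 16 h. LPS cultures changed by 0.62 (adjusted p = 0.0848) and the interaction of 4.48 ± 0.40 (adjusted p = 1.77e-07) stood beside a change of -3.86 in controls. Its relative Id2 moved up (interaction 3.06 ± 0.35, adjusted p = 2.58e-06) in the same way, with controls at 1214 ± 104 and 189 ± 85.4 CPM.

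Id1 is 1 of the genes with the largest control drift among the 224 interaction calls where a change over time was called in control cultures alone. The others by the same rule were Gpr84 and Serpina3f, which fell in controls, and Penk, Ppm1j and Sectm1a, which rose. Gpr84, a receptor for medium-chain fatty acids, grew (interaction 2.34 ± 0.46, adjusted p = 5.35e-04), and 39.5% of its exon bases overlap another gene. Penk, the proenkephalin gene, had 1.57 ± 0.464 and 15.4 ± 1.64 CPM in controls and 7.39 ± 1.904 and 4.11 ± 0.733 with LPS (interaction -4.14 ± 0.31, adjusted p = 1.71e-08), and Ppm1j, a phosphatase gene, had 2.79 ± 0.696 and 15.3 ± 2.58 CPM in controls and 1.31 ± 0.228 and 1.22 ± 0.255 with LPS (-2.56 ± 0.29, adjusted p = 1.49e-06). Serpina3f was at 0 counts in controls at 16 h and Sectm1a in controls at 3.5 h, so no fold is given for them, and limma voom did not call Sectm1a (adjusted p = 0.165). In LPS cultures they had 28.9 ± 7.85 and 15.9 ± 2.28, and 6.398 ± 1.88 and 7.89 ± 1.83 CPM.

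Secreted and survival genes completed the lists. Of 30 complement, coagulation and protease genes, 8 moved up and 5 down. C3, the central complement component, grew (interaction 2.85 ± 0.60, adjusted p = 8.93e-04), from 274 ± 57.98 to 1399 ± 557 CPM with LPS, and F13a1, which crosslinks fibrin, moved down (interaction -3.75 ± 0.61, adjusted p = 1.02e-04). Of 18 iron, zinc and metallothionein genes, 6 moved up and 5 down. Lcn2, which binds bacterial siderophores, and Hp, haptoglobin, grew (interactions 3.94 ± 0.86 and 3.56 ± 0.51, adjusted p = 0.00135 and 2.85e-05), and the zinc transporter Slc30a4 faded (interaction -2.70 ± 0.16, adjusted p = 9.22e-10). Of 28 cell death genes, 4 moved up and 6 down. Bcl2a1d, an anti-apoptotic gene that shares 54.7% of its windows with its copies, faded (interaction -2.79 ± 0.22, adjusted p = 3.46e-08), the lowered effect on Bcl2l1, which encodes Bcl-xL, faded (interaction 1.91 ± 0.26, adjusted p = 1.46e-05), and the pro-apoptotic Pmaip1 grew (interaction 1.98 ± 0.24, adjusted p = 2.97e-06). Of 32 lysosome and cathepsin genes, 3 moved up and 2 down, against 4 and 1 without control replicate 5 at 16 h. Of 16 clock genes 5 were tested, of which 3 moved up and 1 down, and with no filter 6 moved up and 1 down. Per1, a repressor in the clock, had 2.04 ± 0.473 CPM with LPS against 23.1 ± 4.12 in controls early and 31.97 ± 4.33 against 13.5 ± 1.03 late (interaction 4.74 ± 0.23, adjusted p = 1.42e-10), and Nfil3, a clock output repressor, faded (interaction -1.85 ± 0.22, adjusted p = 3.01e-06).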

How the data were processed

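RNA was sequenced from 18 cultures of the comparison as paired reads of 150 bases. Per the submitters' processing notes and the study's methods, the authors aligned reads with STAR to GRCm38 (mm10). The STAR version, the counting tool, the annotation and the strand setting were not given in the sources used here, so genes whose exons overlap cannot be told apart. The deposited values are raw counts per gene, with no normalization. Columns outside the series numbered 0.

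Groups came from the labels. Genes reaching 10 TPM in at least 1 of the 18 cultures were tested, a filter after the study's methods, with exon lengths from the reference annotation. Counts were fitted with edgeR 4.0.16 (R 4.3.3) with TMM factors and a robust quasi-likelihood test over 4 groups, with Benjamini-Hochberg adjustment over all 8748 genes. A call needed an adjusted p under 0.05 and an absolute log2 change of 1. The study's methods name DESeq2, which was run as an alternative (DESeq2 1.42.0), as was limma voom (limma 3.58.1). Other alternatives were 2 other scalings, other filters, other thresholds, a fit of all 28 cultures, a replicate block and leaving out each culture. The scripts were tested on simulated data. Counts of replicate cultures differed by more than sampling noise in all 32 pairs (chi-square divided by its degrees of freedom, 25.7 to 1255).

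Total counts of 41131209 to 72349526 make 3 counts over a group equal to 0.00871 to 0.0189 CPM, and this covers counting error only. Named genes were the 3 protein-coding genes of each class with the largest interaction, at least 10 CPM and a call holding without every culture. For persisted effects they were those whose smaller effect was largest. Added were up to 2 called members per list and direction, and genes set by name (Tnf, Il6, Il1b, Ccl2, Ccl3, Ccl4, Hif1a, Egln3, Nos2, Ifnb1 and Tlr4). The 3 genes each way with the largest control drift whose interaction was called without a called change in LPS cultures were also named. Other list members were named where a list is described. The members, lists and motifs were chosen with earlier results of these data known. Some list members are not reported here.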

Additional observations from a re-analysis of the deposited data

Results flagged for a closer look

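Within each group of 4 or 5 cultures, single cultures lay far from the others for some genes by Dixon's test of the gap to the nearest value. Chance alone marks about 1 in 20 groups, and 42 of the 536 groups checked, over 134 genes, were marked. Values are TMM-scaled CPM with the range of the other cultures of that group in brackets. Rpsa (7430 against 1798 to 2089), Ccl4 (189 against 63.6 to 89.97), Rpl14 (2273 against 612 to 702) and Id2 (341 against 143 to 161) lay above the rest in replicate 5 of control 16 h. Replicate 5 of control 16 h lay above the rest for Bcl2l1 (209 against 117 to 131), Ube2c (274 against 65.98 to 83.9), Cdk1 (140.1 against 78.9 to 87.3) and Rrm2 (118 against 84.1 to 92.05). Mvd (32.7 against 15.9 to 18.7), Mcm10 (36.9 against 19.1 to 22.9) and Pmaip1 (24.6 against 16.2 to 18.5) lay above the rest in replicate 5 of control 16 h. Replicate 5 of control 16 h lay below the rest for Cd274 (10.4 against 22.03 to 23.9), Gclm (89.6 against 156 to 166), Pfkfb3 (13.5 against 29.8 to 32.5) and Gpr84 (0.358 against 1.39 to 1.69). Cited2 (51.9 against 80.8 to 88.05), Idh2 (37.9 against 70.1 to 76.3), Tlr4 (27.9 against 49.2 to 56.97) and Dusp4 (4.93 against 10.9 to 13.04) lay below the rest in replicate 5 of control 16 h. Replicate 5 of control 16 h lay below the rest for Cd300lf (2.01 against 3.14 to 3.57). Ifit1 (7278 against 2950 to 3550), Bcl2a1d (174 against 107 to 117), Ube2c (5.55 against 2.37 to 2.44) and Tnfsf4 (4.38 against 3.11 to 3.29) lay above the rest in replicate 4 of LPS 16 h. Replicate 4 of LPS 16 h lay below the rest for Tlr4 (36.6 against 52.7 to 55.4) and Per1 (25.5 against 33.7 to 34.5). Per1 (11.7 against 13.8 to 14.3) lay below the rest in replicate 3 of control 16 h. Replicate 4 of control 16 h lay above the rest for Acod1 (12.2 against 1.22 to 3.98), Il1b (6.46 against 0.934 to 2.05) and Il6 (0.329 against 0 to 0). Acod1 (29.7 against 7.76 to 13.96) and C3 (25.7 against 8.27 to 12.8) lay above the rest in replicate 4 of control 3.5 h. Replicate 2 of LPS 16 h lay above the rest for Hpgd (1.53 against 0.914 to 1.01). Ldha (2602 against 3490 to 3599) and Osm (44.2 against 75.5 to 81.7) lay below the rest in replicate 3 of LPS 16 h. Replicate 1 of LPS 3.5 h lay below the rest for Ifit2 (3663 against 5000 to 5213), Pfkfb3 (92.8 against 139.6 to 147) and Gprc5c (28.9 against 39.6 to 40.02). Aldoc (13.3 against 10.5 to 10.9) lay above the rest in replicate 2 of LPS 3.5 h. Replicate 3 of LPS 3.5 h lay above the rest for Slc30a4 (106 against 92.2 to 92.8). Cd300lf (1.14 against 1.65 to 1.697) lay below the rest in replicate 3 of LPS 3.5 h. Replicate 4 of LPS 3.5 h lay below the rest for Mrc1 (492 against 552 to 557). The 2 cultures named first are those that stood apart over all genes, and the part of either in these values was not tested.

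The LPS effect differed between the times by the interaction term itself for 2301 genes. Among the leading genes of the classes, the difference in log2 units was positive for C130050O18Rik (6.36), Cnr2 (5.95), Lhfpl2 (4.82), Arg1 (9.18), Clic5 (6.76), Kdr (6.54), Cd300lf (7.45), Rhov (5.76) and Ppp1r12b (5.74). It was negative for Rnd3 (-5.36), Rnd1 (-5.32), F3 (-5.26), Ube2c (-5.59), Ccna2 (-5.57), Slco2b1 (-5.50), Gprc5c (-6.00), Maml2 (-5.04) and Zbtb8a (-4.88).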

How the results depend on the processing

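Leaving out single cultures kept every count of calls over all genes and per class within 1.5 times, while counts of some function lists moved further, and larger changes came with the scaling, the filter and the fold threshold. Leaving out each culture in turn, the interaction was called for 2104 to 2683 genes, the highest without LPS 16 h replicate 4 and the lowest without control 3.5 h replicate 4, with 1035 to 1300 moving up and 1028 to 1383 moving down. The LPS effect was called for 1984 to 2170 genes at 3.5 h and 2382 to 2579 at 16 h.

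With library size alone as scaling, 3036 genes were called at 3.5 h (759 higher, 2277 lower, median -0.54, 25.0% of calls higher against 52.9%) and 3403 at 16 h (839 higher, 2564 lower, median -0.58, 24.7% higher against 54.6%), while the interaction was called for 2283 (1082 up, 1201 down, median -0.03). Persisted effects then numbered 127 higher and 412 lower, effects that grew higher 285 and unresolved ones 2177. With edgeR's own filter on counts, more genes were tested and the calls were 3790 for the interaction (1866 up, 1924 down), 3795 at 3.5 h, 4538 at 16 h, 1663 for control over time and 4446 for LPS over time, with 460 higher and 725 lower effects faded, 724 and 1101 grown, 46 and 83 reversed and 2779 unresolved. With no filter they were 3613 (1801 up, 1812 down), 3881, 4849, 1506 and 4455, with 714 lower effects faded, 1064 grown lower, 40 and 72 reversed and 3355 unresolved. With no fold threshold they were 4267 (2185 up, 2082 down), 4871, 5256, 3867 and 5189, with 600 and 809 faded, 566 and 529 persisted, 962 and 1145 grown and 267 and 369 reversed. With a log2 threshold of 2 they were 716 (362 up, 354 down), 849, 1000, 116 and 674, with 76 and 111 faded, 82 and 11 persisted, 153 and 201 grown, 3 and 8 reversed and 723 unresolved. With the interval for persisted effects held within 1.5-fold, 76 and 27 persisted. DESeq2, limma voom, median-of-ratios factors, a filter at 10 CPM and a fit of all 28 cultures left every count within 1.5 times.

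The labels give groups the same replicate numbers. Over 25 same-numbered pairs the correlation of deviations ran from -0.68 to 0.65, median 0.06, and was over 0.1 in 11. No differently numbered pairs were set beside them, so these values do not settle whether the numbers pair the cultures. With a replicate block the interaction was called for 2261 genes (1206 up, 1055 down). The alternative without both cultures that stood apart was chosen after seeing the data. Low control counts limit the interactions of Il6, Ifnb1 and Nos2.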

Other observations

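An effect called at a single time was not always an effect that differed between the times. Of 914 genes called for LPS at 3.5 h alone, 580 had the interaction called, and of 1240 called at 16 h alone, 813 did. A further 1203 genes were called at both times, 1133 in the same direction and 70 in opposite ones. Among the 5391 genes with no LPS effect called at either time, 449 had the interaction called.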
